A study of Mus musculus with 10 samples.

Results

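The genes described here are the 5 that carry acetylcholine through its life in a cell: Chat, Slc5a7, Slc18a3, Ache and Bche. They were picked by symbol, with no use of measured values, from the 43432 gene identifiers of the count files, and all 5 were among the 19281 genes with enough counts to be tested. RNA was sequenced from sorted epithelial cells of 12-week-old naive male mice of the strain C57BL6.Il25(Flare25/Flare25). Every mouse, including those that gave the reference cells, carried both copies of Flare25, a fluorescent reporter at the Il25 locus, and each library came from 1 mouse. The 3 groups were small intestinal (SI) tuft cells (3 libraries, numbered 2, 3 and 4), thymic tuft cells (4 libraries) and non-tuft epithelium of the small intestine (3 libraries). All were sorted as DAPI-, CD45- and EPCAM+, and the tuft groups also as Flare25+, the reference as Flare25-, so the reporter alone set tuft cells apart. The reference was sorted from the small intestine only, so tissue and dissociation method cannot be told apart from tuft cell type in the comparisons that cross from gut to thymus.

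Acetylcholine is made from choline and acetyl-CoA by choline acetyltransferase (Chat). In neurons, choline is taken up by the high-affinity transporter encoded by Slc5a7, and the vesicular acetylcholine transporter encoded by Slc18a3 fills synaptic vesicles with the product. Acetylcholinesterase (Ache) and butyrylcholinesterase (Bche) split it again outside the cell, the former highly selective for acetylcholine and the latter of broader specificity. Tuft cells are chemosensory epithelial cells known to express Chat, and acetylcholine is one of their effector molecules beside interleukin-25 and lipid mediators.

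The libraries held 38659882 to 73574745 gene counts each. The sorted cells numbered 52000 to 57000 per library of non-tuft epithelium, 35000 to 36000 of SI tuft cells and only 1350 to 1900 of thymic tuft cells. Mitochondrial genes took 18.6 to 23.7%, 24.1 to 33.5% and 4.4 to 6.0% of the counts. Levels are CPM, counts per 1000000 counts of the library after TMM scaling, whose factors ran from 0.661 to 1.43, and a gene is said to have risen or fallen where edgeR's quasi-likelihood test gave a Benjamini-Hochberg adjusted p below 0.05 over all genes tested. The 12 tuft cell markers summed to 26467 to 34793 CPM in SI tuft cells and 5629 to 6420 CPM in thymic tuft cells, against 228 to 443 CPM in non-tuft epithelium. In bulk samples such as these, fewer cells of a type and less RNA per cell cannot be told apart. Each library of non-tuft epithelium also held about 0.569 to 0.583% of the counts of a thymic tuft library, and each of those 3 thymic libraries 0.876 to 0.948% of the counts of the epithelial one, a share estimated from genes restricted to the other tissue.

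Among the 5 genes, Chat rose and Ache fell in SI tuft cells against their non-tuft neighbours, 1 gene each way, where 10.9% of all genes tested rose and 11.4% fell. In thymic against SI tuft cells 2 of the 5 rose (Slc5a7, Ache) and 2 fell (Chat, Bche), where 28.5% of all genes rose and 23.1% fell. Against SI non-tuft epithelium, thymic tuft cells had 3 genes higher (Chat, Slc5a7, Ache) and 1 lower (Bche), with 28.6% and 22.3% of all genes called. Slc5a7 entered the test only through its thymic counts, which favours a difference, and its calls are not support for these numbers. In either direction 22.3, 51.6 and 50.9% of the genes tested were called in these comparisons, and the libraries of the groups compared did not overlap for 51.1, 51.2 and 55.5% of them. A call or a lack of overlap is therefore common in these data, and the sizes of the differences carry the description. With library sizes alone in place of TMM, 81.5 and 75.5% of the calls in the thymic comparisons were higher (55.2 and 56.2% with TMM), and 32.2% of those in SI tuft against non-tuft epithelium (48.9%).

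**Figure D1:**
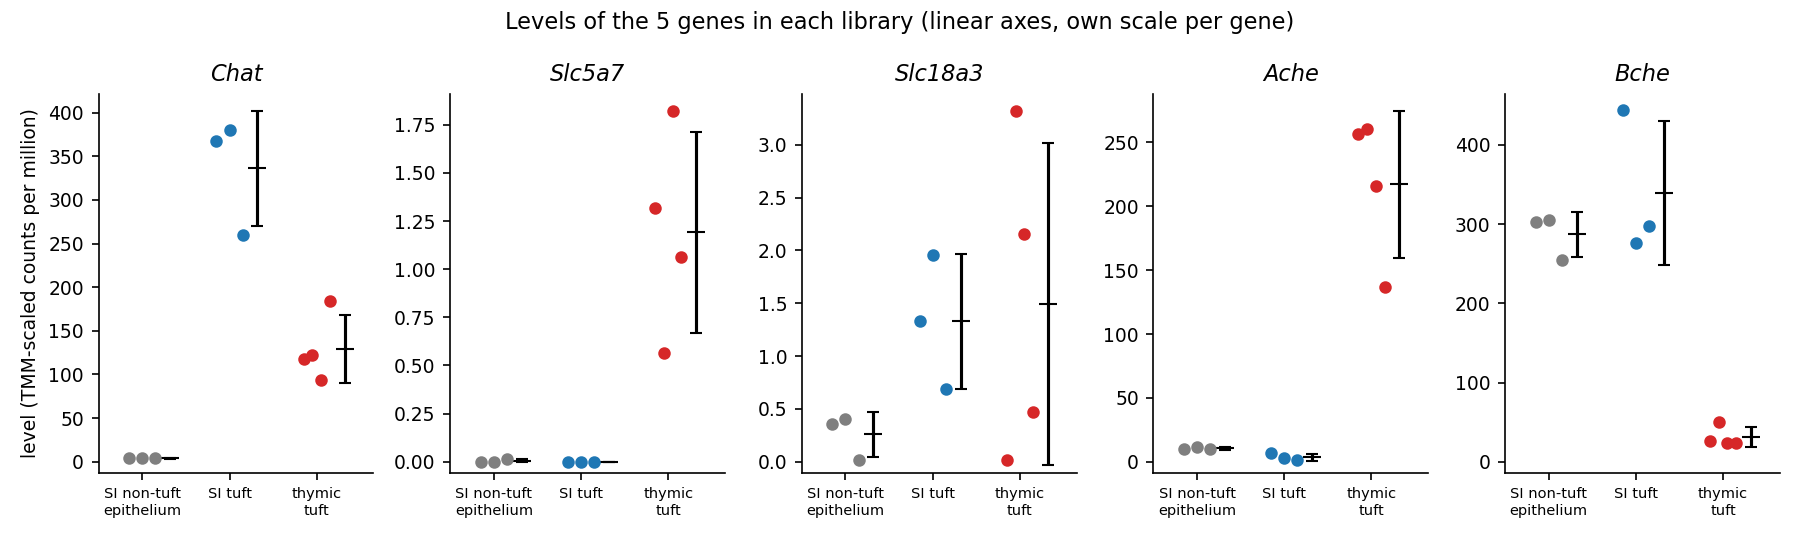
Level of each gene (TMM-scaled CPM, linear axis with its own scale per panel) in each library of SI non-tuft epithelium, SI tuft cells and thymic tuft cells. Points are libraries and the black bar beside them is the mean ± SD. On this scale, though not on a TPM-like one, Chat is highest in SI tuft cells. Ache is highest in thymic tuft cells, Bche in both intestinal groups, and Slc5a7 leaves the baseline only in the thymic libraries.

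Chat and Slc18a3 occupy a single locus. On GRCm38, Chat lies on the minus strand of chromosome 14 from 32408203 to 32465989, and Slc18a3, a gene of 1 exon, sits on the same strand inside an intron of Chat at 32462438 to 32464850, 395 bases from the next Chat exon on its downstream side and 956 bases from the one upstream. This nested arrangement, in which the synthesising enzyme and the vesicle transporter can share upstream sequence, is known as the cholinergic gene locus. The stretches just before both gene starts (RefSeq, GRCm38.p6, minus strand, up to the first annotated exon base) are shown because their base composition differs while the genes lie so close. Capitals mark CpG dinucleotides.
Chat: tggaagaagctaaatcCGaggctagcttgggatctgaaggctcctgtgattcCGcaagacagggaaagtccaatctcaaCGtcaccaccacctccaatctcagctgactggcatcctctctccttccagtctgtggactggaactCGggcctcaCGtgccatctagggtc
Slc18a3: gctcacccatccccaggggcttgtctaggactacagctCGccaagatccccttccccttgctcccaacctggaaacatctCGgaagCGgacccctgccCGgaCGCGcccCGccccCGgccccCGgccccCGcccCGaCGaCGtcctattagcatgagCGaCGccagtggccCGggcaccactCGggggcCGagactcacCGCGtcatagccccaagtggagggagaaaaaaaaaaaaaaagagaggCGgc
The first covers chr14:32465990-32466159 and the second chr14:32464851-32465100. Over the full window of 300 bases around the start, Chat had 10 CpG and Slc18a3 had 27, against a median of 7 over 32851 mouse promoters. Pou2f3, the transcription factor that defines tuft cells, belongs to the POU factors. After the promoter letters were seen, the core of the POU-factor octamer, TGCAAAT, was searched on both strands. It occurred once in the Chat window, on the same strand as the gene and starting 20 bases before the RefSeq start, inside an annotated exon and so outside the printed stretch, and in none of the windows of the other 4 genes. The same letters occur in 4.02% of all promoter windows, and the full octamer ATGCAAAT, present in 1.74% of them, was in none of the 5. A match of letters is a description and not a binding site. For a motif chosen after the letters were seen, these shares test nothing.

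Chat was high in both tuft groups and low outside them. Its level was 3.78, 3.76 and 4.77 CPM in the libraries of non-tuft epithelium, 367, 380 and 260 CPM in SI tuft cells, and 118, 122, 93.1 and 184 CPM in thymic tuft cells. No library of one group reached the range of another. The means were 4.10 ± 0.577 (SD, n = 3), 336 ± 66.0 (n = 3) and 129 ± 38.5 CPM (n = 4). SI tuft cells thus exceeded non-tuft epithelium 81.9-fold, with a log2 fold change of 6.35 (SE 0.31, adjusted p = 3.08e-08), and thymic tuft cells exceeded it 31.5-fold (4.97, SE 0.28, adjusted p = 6.08e-08). Per kilobase of exon, Chat ranked 642 of 15787 protein-coding genes tested in SI tuft cells and 1146 in thymic tuft cells, against 10506 in non-tuft epithelium.

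The level of Chat in non-tuft epithelium was 1.22% of that in SI tuft cells. The same ratio was 1.17% in the median of the 12 tuft cell markers, which ranged from 0.856% (Trpm5, the taste-type cation channel) to 1.87% (Pou2f3). Of the Chat counts in the epithelial libraries, 13.3 to 21.2% equalled the share expected from their thymic partner. The residual Chat signal of the Flare25- gate therefore stood at the level at which the tuft markers stood there. Whether it came from tuft cells in that gate was not tested.

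Between the tuft groups, Chat was 2.60-fold lower in the thymus (log2 fold change -1.38, SE 0.22, adjusted p = 0.000298). This difference depended on the scaling. With library sizes alone the difference shrank to -0.48 (adjusted p = 0.0814), and on a length-scaled, TPM-like scale Chat averaged 110 ± 27.0 for SI tuft and 124 ± 34.5 for thymic tuft libraries, the other way round. Scaling by library size alone also moved the median of all genes from 0.12 to 1.02 in this comparison. Chat was below the median gene in both fits. A change of scaling moves all genes nearly alike, so this likeness of the fits was fixed in advance and is no support. Of the 12 tuft markers beside it, 11 were also lower in thymic than in SI tuft cells with TMM, where 23.1% of all genes fell. Their median log2 fold change was -1.57. The fall of their sum, given above, was larger, and Sh2d6 was the largest part of it (14043 ± 2754 CPM in SI and 1330 ± 213 CPM in thymic tuft cells).

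Slc5a7, the high-affinity choline transporter that limits acetylcholine synthesis in cholinergic neurons, lies on the minus strand of chromosome 17 at 54273590 to 54299034. It gave no count in any SI tuft library and counts of 0, 0 and 1 in non-tuft epithelium. The thymic tuft libraries held 80, 30, 126 and 56 counts, or 1.32, 0.565, 1.82 and 1.06 CPM. Every thymic library was above every intestinal one, at a level that is low in itself, 1.19 ± 0.523 CPM (n = 4) and 0.211 CPM per kilobase. Pooled over the group, thymic tuft cells were at least 47.8-fold higher than SI tuft cells, taking 3 counts over the group as the most that a count of 0 allows. Over non-tuft epithelium, with its single count, the ratio was 206 with a 95% interval of 36.7 to 8164 from counting error alone. The gene had enough counts to be tested only because of the thymic libraries, which favours a difference, and its calls support nothing. The single epithelial count lay in the library that shares counts with thymic replicate 1. SI tuft cells and non-tuft epithelium could not be told apart at this depth, at which 3 counts are 0.0454 to 0.0817 CPM.

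Slc18a3, the vesicular loader, was scarce and uneven. Its counts were 19, 19 and 1 in non-tuft epithelium, 55, 72 and 26 in SI tuft cells, and 1, 176, 149 and 25 in thymic tuft cells. The mean levels were 0.259 ± 0.212, 1.33 ± 0.637 and 1.49 ± 1.53 CPM. The SI tuft libraries were all above the epithelial ones, but the thymic libraries spanned from the level of the lowest epithelial library to above every SI tuft library, and none of the 3 comparisons passed the test. The log2 fold change was 2.36 for SI tuft against non-tuft epithelium (SE 1.47, adjusted p = 0.291), 2.52 for thymic tuft against it (SE 1.43, adjusted p = 0.163) and 0.17 between the tuft groups (SE 1.31, adjusted p = 0.927), where the sign turned in 4 of the alternatives. Per kilobase, Slc18a3 stood at 0.514 to 1.00% of the Chat level in SI tuft cells and at 0.0272, 5.30, 4.51 and 0.504% in the 4 thymic libraries. Counts cannot tell Slc18a3 RNA from unspliced Chat RNA over its exon.

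The esterases stood at opposite levels in gut and thymus. Ache lies on the plus strand of chromosome 5 at 137287519 to 137294466 and Bche on the minus strand of chromosome 3 at 73635808 to 73708415. The sequences before their starts (RefSeq, GRCm38.p6) are shown because they sit at opposite ends of G and C content among the 5 genes, as capitals marking CpG make visible.
Ache: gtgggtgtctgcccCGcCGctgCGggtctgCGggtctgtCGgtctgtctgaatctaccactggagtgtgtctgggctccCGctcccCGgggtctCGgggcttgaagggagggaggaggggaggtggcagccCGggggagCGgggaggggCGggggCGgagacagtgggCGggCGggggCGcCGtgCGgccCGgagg
Bche: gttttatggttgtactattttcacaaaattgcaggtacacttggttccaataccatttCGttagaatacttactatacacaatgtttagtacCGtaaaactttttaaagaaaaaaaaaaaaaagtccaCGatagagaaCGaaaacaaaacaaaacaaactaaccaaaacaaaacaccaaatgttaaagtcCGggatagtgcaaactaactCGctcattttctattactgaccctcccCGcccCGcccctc
The Ache stretch covers chr5:137288058-137288253 on the plus strand and the Bche stretch chr3:73708416-73708665 on the minus strand. The Ache stretch lies inside the gene span given above, outside annotated exons, because that span begins upstream of the RefSeq start. In the full windows of 300 bases, Ache had 30 CpG and 74.0% G and C, more CpG than 88.3% of mouse promoters, and Bche had 8 CpG and 39.3% G and C.

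Ache, the fast and acetylcholine-selective esterase, was a gene of the thymic tuft libraries. It measured 256, 260, 216 and 137 CPM there, against 6.49, 2.53 and 1.00 CPM in SI tuft cells and 10.2, 11.8 and 9.57 CPM in non-tuft epithelium. The 4 thymic libraries were all far above the intestinal ones, and the 3 groups did not overlap. The means were 217 ± 57.4 (n = 4), 3.34 ± 2.83 (n = 3) and 10.5 ± 1.13 CPM (n = 3). Thymic tuft cells held 65.0-fold more Ache than SI tuft cells (log2 fold change 6.02, SE 0.57, adjusted p = 3.32e-06) and 20.7-fold more than non-tuft epithelium (4.37, SE 0.52, adjusted p = 2.25e-05). Per kilobase it ranked 557 of 15787 protein-coding genes in thymic tuft cells and 10544 in SI tuft cells.

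Within the intestine, Ache was 3.14-fold lower in tuft cells than in their neighbours (log2 fold change -1.65, SE 0.49, adjusted p = 0.029). The log2 fold change stayed between -2.57 (without SI tuft replicate 2) and -1.22 in the 21 alternatives, while the adjusted p was above 0.05 in 6 of them. The call ended when epithelial replicate 1, 2 or 3 was left out (log2 fold change -1.67, -1.56 and -1.71, adjusted p = 0.068, 0.0846 and 0.0595) or SI tuft replicate 3 or 4 (-1.48 and -1.22, adjusted p = 0.109 and 0.0523). It also ended when the counts shared with thymic libraries, 14.4 to 15.7% of the epithelial Ache counts, were subtracted (-1.43, adjusted p = 0.0612).

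Bche ran the other way. It measured 302, 305 and 254 CPM in non-tuft epithelium, 444, 276 and 297 CPM in SI tuft cells, and 26.7, 50.3, 23.5 and 23.7 CPM in thymic tuft cells. The intestinal groups overlapped, and all thymic libraries lay far below both. The means were 287 ± 28.6 (n = 3), 339 ± 91.2 (n = 3) and 31.1 ± 12.9 CPM (n = 4). Bche was 10.9-fold lower in thymic than in SI tuft cells (log2 fold change -3.45, SE 0.28, adjusted p = 1.04e-06) and 9.25-fold lower than in non-tuft epithelium (-3.21, SE 0.28, adjusted p = 1.73e-06). SI tuft cells and non-tuft epithelium differed by 0.24 (SE 0.29, adjusted p = 0.607), less than the spread between libraries. Of all genes tested, 23.1% were lower in thymic than in SI tuft cells and 22.3% lower than in non-tuft epithelium. The 7 enterocyte markers were placed like Bche, all 7 lower in thymic tuft cells than in either intestinal group. They summed to 12762 to 15028 CPM in non-tuft epithelium, 24583 to 30446 CPM in SI tuft cells and 147 to 352 CPM in thymic tuft cells, and their part in the Bche level was not tested. Of the Bche counts of thymic replicates 1, 2 and 3, 5.1 to 9.0% equalled the share expected from their epithelial partner.

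**Figure D2:**
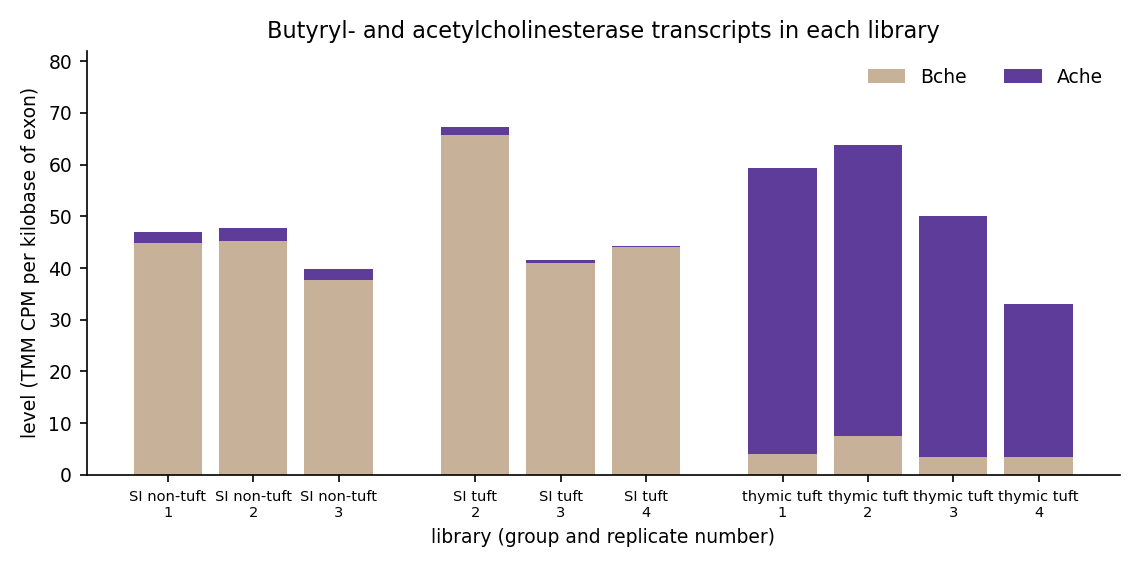
Stacked bars of the Bche and Ache levels (TMM CPM per kilobase of exon, linear axis from 0) in each of the 10 libraries, by group and replicate number. Bche fills nearly the whole bar in the 6 intestinal libraries and Ache in the 4 thymic ones, while the bar heights of the groups overlap.

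Compared per kilobase, so that the genes can be set beside each other, Ache made up 4.68 to 5.32% of the summed esterase level in non-tuft epithelium, 0.490 to 2.09% in SI tuft cells and 88.3 to 93.3% in thymic tuft cells. These shares are ratios within a library and do not move with the scaling. The summed level itself was 44.9 ± 4.42, 51.0 ± 14.1 and 51.6 ± 13.6 CPM per kilobase in the 3 groups, differences within the spread between libraries. On the TPM-like scale the sums were 82.9 ± 6.47, 76.4 ± 9.37 and 234 ± 68.1, so the likeness of the sums was not seen on that scale. Set against synthesis, the level of Ache per kilobase was 2.21, 2.17, 2.36 and 0.756 times that of Chat in the thymic libraries and 0.0180, 0.00677 and 0.00392 times in the SI tuft libraries. Thymic replicate 4 combined the highest Chat with the lowest Ache of its group. In SI tuft cells the order of levels per kilobase was Chat (71.4 ± 14.0), Bche (50.3 ± 13.5), Ache (0.723 ± 0.612) and Slc18a3 (0.550 ± 0.264), of which the first 2 and the last 2 overlapped. In thymic tuft cells it was Ache (47.0 ± 12.4), Chat (27.5 ± 8.19), Bche (4.61 ± 1.91), Slc18a3 (0.618 ± 0.632) and Slc5a7 (0.211 ± 0.0926), in which Ache and Chat overlapped, as did the last 2.

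**Figure D3:**
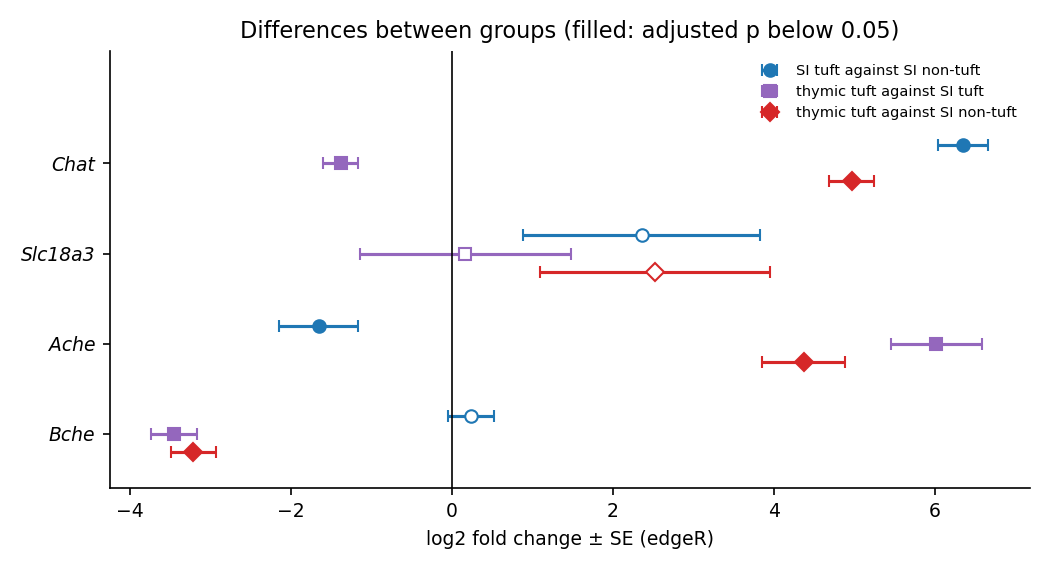
log2 fold change of 4 genes in the 3 comparisons, with bars of 1 SE from edgeR's fit, filled where the adjusted p was below 0.05. Slc5a7 is not drawn because its fitted value against libraries at 0 has no fixed size. Ache and Bche lie on opposite sides of 0 in both thymic comparisons, and no Slc18a3 value is filled.

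Reads near these genes could be shared with neighbours, since the library kits do not mark strand. Ufsp1 starts 162 bases beyond the end of Ache and measured 10.5, 13.2 and 29.4 CPM in the 3 groups, a far smaller spread than that of Ache. The miRNA gene Mir8116 lies inside Ache, outside its exons, and was credited with up to 1472 counts in a thymic library. The antisense Gm42456 shares 98 exon bases with Ache and was not analysed here. The antisense Gm2990 overlaps the span of Chat but not its exons, and had at most 10 counts.

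Markers of other cells were read beside these values, since they moved with the thymic comparisons. The 13 neuronal markers summed to 177 to 250 CPM in thymic tuft cells, 26.7 to 37.8 CPM in SI tuft cells and 170 to 223 CPM in non-tuft epithelium. These sums rested on different genes, Snap25 in non-tuft epithelium (167 ± 22.8 CPM) and Syt1 in thymic tuft cells (132 ± 15.0 CPM). Of the 10 neuronal markers tested, 7 rose and none fell in thymic against SI tuft cells, and 4 rose and 2 fell against non-tuft epithelium. Over all genes, 28.5% rose and 23.1% fell in the former comparison, and 28.6% rose and 22.3% fell in the latter. The 7 muscle markers summed to 89.7 to 187 CPM in the thymic libraries against 2.21 to 7.85 CPM in the intestinal ones, with Myod1 at 0 in all, and 6 of the 6 tested rose against SI tuft cells. The 5 red blood cell markers, of a cell that carries acetylcholinesterase, summed to 2.11 to 4.18 CPM in thymic tuft cells and 4.01 to 12.0 CPM in SI tuft cells. These sums hide opposite differences, with 1 of the 5 higher and 2 lower in thymic than in SI tuft cells. Alas2 measured 2.87 ± 1.13 against 0.0443 ± 0.0548 CPM, and Hbb-bs 0.224 ± 0.380 against 2.79 ± 0.113 CPM. The thymic sums rested mostly on Alas2, which had enough counts only because of the thymic libraries. The 6 medullary thymic epithelial markers were at 1181 to 1498 CPM in thymic tuft cells and at most 56.4 CPM elsewhere. The 6 cortical thymic epithelial markers summed to 418 to 607 CPM in thymic tuft cells and at most 76.1 CPM in the intestinal groups, with 5 of 6 higher in both comparisons. The 6 fibroblast markers (all 6 higher) were at 20.0 to 120 against at most 0.977 CPM, and 4 of them were at 0 in every SI tuft library. The 6 myeloid markers (5 higher) were at 236 to 285 against at most 50.1 CPM, mostly from Lyz2 (183 ± 19.0 CPM in thymic tuft cells). All 6 fibroblast markers and 4 of the 6 muscle markers tested had enough counts only because of the thymic libraries. So did 3 of the 10 neuronal markers tested, 2 of the 6 cortical and 1 of the 6 myeloid ones. Calls on these genes are no support for a difference. B cell markers summed to 25.5 to 40.2 against at most 4.07 CPM, and endothelial ones to 41.4 to 114 against at most 34.1 CPM. The thymic B cell sums rested mostly on Cd79b (25.1 ± 8.61 CPM), with Ms4a1 at 0.0778 ± 0.0956 CPM. The endothelial sums rested mostly on Tek (69.6 ± 24.3 CPM in thymic and 27.2 ± 6.12 CPM in SI tuft cells). Kdr was at most 0.0987 CPM in the thymic libraries. Sums carried by 1 gene do not show that these cells were present. The part of transcripts of any of these cells in the thymic levels of Ache, Slc5a7 and the receptor genes was not tested.

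Acetylcholinesterase is held at membranes and basal laminae by anchor proteins, and both anchor genes were, like Ache, higher in thymic than in SI tuft cells. Colq, which encodes the collagen tail, measured 0.565, 0.361 and 1.48 CPM in non-tuft epithelium, 7.0, 12.1 and 9.95 CPM in SI tuft cells and 52.0, 89.1, 84.2 and 39.8 CPM in thymic tuft cells. The 3 groups did not overlap, and Colq, unlike Ache, was higher in SI tuft cells than in their neighbours (log2 fold change 3.56, SE 0.51, adjusted p = 0.000328). It rose again from SI to thymic tuft cells (2.78, SE 0.47, adjusted p = 0.000383). A predicted gene, Gm49387, shares 199 exon bases with it. Prima1, which encodes the membrane anchor, had no count in SI tuft cells and measured 0.312, 2.41, 16.3 and 21.3 CPM in the thymic libraries, at least 392-fold above SI tuft cells (adjusted p = 0.000945). Its thymic libraries spread widely (10.1 ± 10.3 CPM), and replicate 1 lay below all 3 libraries of non-tuft epithelium (0.529 ± 0.0960 CPM). Its call against non-tuft epithelium (4.25, SE 1.27, adjusted p = 0.0179) ended in 4 alternatives.

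**Figure D4:**
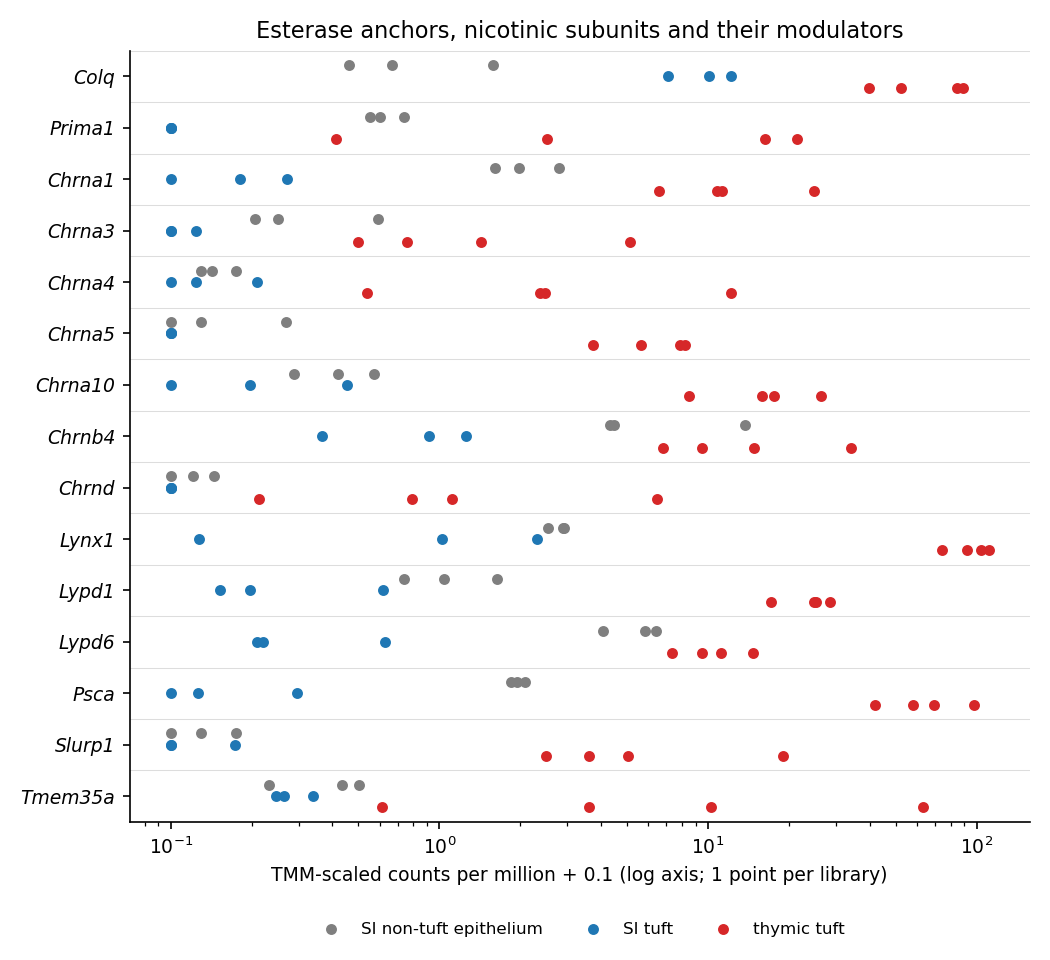
Level of 15 genes for esterase anchors, nicotinic receptor subunits and their modulators (TMM-scaled CPM plus a small constant, log axis), 1 point per library, coloured by group. Thymic tuft libraries lie to the right for Colq, Lynx1 and Psca without overlap, while Prima1 and Chrnd spread widely among the thymic libraries.

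Receptors for acetylcholine are ligand-gated nicotinic channels, built from 5 subunits, and G-protein-coupled muscarinic receptors. Of 16 nicotinic subunit genes 13 were tested, and 9 of the 13 rose and none fell in thymic against SI tuft cells. Against non-tuft epithelium 7 of the 13 rose in thymic tuft cells, or 4 without epithelial replicate 1. Over all genes tested, 28.5% rose in the former comparison and 28.6% in the latter. Of the 13, 6 had enough counts only because of the thymic libraries (Chrna3, Chrna4, Chrna5, Chrna9, Chrnd and Chrng). Such a choice favours a rise there, so the counts are no support for a difference of the list. It did not force a call, since Chrna9 was not called between the tuft groups (1.53, SE 1.42, adjusted p = 0.396). The 3 untested genes, Chrna6, Chrna7 and Chrnb3, had at most 8 counts over a group. Chrna5 had no count in SI tuft cells and measured 3.62, 8.12, 5.53 and 7.76 CPM in the thymus, at least 236-fold above. Chrna1, the muscle-type alpha subunit, stood at 0.0839 ± 0.0851 CPM in SI tuft cells and 13.2 ± 7.89 CPM in thymic tuft cells (7.24, SE 0.95, adjusted p = 5.55e-05), beside the muscle markers given above. Chrna10 (17.0 ± 7.28 CPM in thymic tuft cells) rose by 6.81 (SE 0.99, adjusted p = 0.000122), and 1025 of its exon bases overlap Art1 on the other strand. Chrnb4, a ganglionic-type beta subunit, fell in SI tuft cells against non-tuft epithelium (-3.31, SE 0.78, adjusted p = 0.00939), as did Chrna1 (-4.54, SE 0.88, adjusted p = 0.00281). With a filter of 10 CPM in 3 libraries only 3 nicotinic genes were called between the tuft groups, because most fell below the filter.

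Some nicotinic receptors are folded or tuned by other proteins. Of 10 chaperones and Ly6-family modulators, 9 rose in thymic against SI tuft cells and 8 against non-tuft epithelium, beside 28.5% and 28.6% of all genes. Here 4 of the 10 (Lypd6b, Ly6h, Slurp1 and Rapsn) had enough counts only because of the thymic libraries, and the same limit holds. Lynx1, a GPI-anchored Ly6 protein that dampens nicotinic receptors, went from 1.06 ± 1.10 CPM in SI tuft cells and 2.69 ± 0.207 CPM in non-tuft epithelium to 91.6, 111, 74.2 and 104 CPM in thymic tuft cells (6.49 against SI tuft cells, SE 0.78, adjusted p = 2.71e-05). Psca, of the same family, measured 57.6, 41.6, 97.7 and 69.2 CPM in the thymus against 0.0736 ± 0.105 CPM in SI tuft cells (9.72, SE 0.70, adjusted p = 3.68e-07). Lypd1 and Lypd6 stood at 23.9 ± 4.80 and 10.6 ± 3.12 CPM in the thymus and fell in SI tuft cells against their neighbours, Lypd1 with a call that ended in 6 alternatives. Lypd1 shares 1202 exon bases with Gpr39 on the other strand, so its counts are uncertain. With the same stricter filter 5 of these genes were called between the tuft groups.

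Muscarinic receptors did not follow. Of 5 genes 3 were tested, and none passed the test between the tuft groups, where the thymic and SI tuft means of Chrm1 were 1.08 ± 1.99 and 1.28 ± 1.70 CPM. Chrm1 and Chrm3 were highest in non-tuft epithelium, at 18.5 ± 0.752 and 10.7 ± 3.79 CPM, and thymic tuft cells were lower than it in both (-4.09, SE 1.43, adjusted p = 0.0307, and -2.99, SE 1.03, adjusted p = 0.0288). Both calls ended without epithelial replicate 2 or 3 or thymic replicate 2, and with library sizes alone.

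Choline reaches cells by other routes than Slc5a7. Of 10 tested choline and organic cation transporters, 3 rose and 1 fell in SI tuft cells against non-tuft epithelium, and 4 rose and 3 fell in thymic against SI tuft cells. The 4 became 2 without SI tuft replicate 2 or 3 or thymic replicate 1 or 3. Over all genes tested, 10.9% rose and 11.4% fell in the first comparison, and 28.5% rose and 23.1% fell in the second. The transporter counts between the tuft groups were not far from those shares. Slc44a1, the broadly expressed choline transporter-like protein, was abundant in all groups (169 ± 16.2, 91.8 ± 11.6 and 103 ± 19.2 CPM). Slc44a3 and Slc44a4 were SI tuft genes, at 198 ± 43.7 and 151 ± 26.7 CPM against 59.2 ± 3.49 and 64.7 ± 14.2 CPM in non-tuft epithelium and 17.2 ± 4.68 and 19.9 ± 6.22 CPM in the thymus. All 6 of these differences passed the test. Antisense genes share 310 exon bases with Slc44a1 and 349 with Slc44a3. Slc44a2 also rose in SI tuft cells against non-tuft epithelium (1.13, SE 0.29, adjusted p = 0.0155), but was highest in the thymus, with 7.63 ± 0.365, 16.7 ± 5.98 and 127 ± 30.8 CPM (thymic against SI tuft cells 2.92, SE 0.30, adjusted p = 6.8e-06). Its SI tuft call ended without any 1 of the epithelial replicates or without SI tuft replicate 2 or 3 (0.92 to 1.16, adjusted p = 0.0512 to 0.0727).

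Other enzymes of choline metabolism were mostly lower in the thymus, 6 of 9 tested against 1 higher between the tuft groups (3 lower with library sizes alone). Among all genes tested, 23.1% were lower and 28.5% higher there. Chdh, which oxidises choline towards betaine, was the most abundant, at 158 ± 10.1 CPM in non-tuft epithelium, 929 ± 155 in SI tuft cells and 392 ± 30.7 in thymic ones. It rose in SI tuft cells (2.56, SE 0.16, adjusted p = 3.76e-07) and was higher in thymic tuft cells than in non-tuft epithelium (1.31, SE 0.15, adjusted p = 1.61e-05), the same order of groups as Chat. Its fall from SI to thymic tuft cells (-1.25, SE 0.14, adjusted p = 1.77e-05) missed the threshold with library sizes alone, like that of Chat (adjusted p = 0.0502). Chkb, a choline kinase, rose in SI tuft cells (1.37, SE 0.21, adjusted p = 0.000546) and was lowest in thymic ones. Chpt1, which makes phosphatidylcholine, fell from 89.2 ± 15.5 to 2.98 ± 0.965 CPM between the tuft groups (-4.90, SE 0.29, adjusted p = 7.53e-08). All 3 share exon bases with a gene on the other strand or a readthrough model, so their counts are uncertain.

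The second substrate, acetyl-CoA, leaves mitochondria as citrate and is released by ATP citrate lyase. In thymic against SI tuft cells 23.1% of all genes tested fell and 28.5% rose, and against non-tuft epithelium 22.3% and 28.6%. Of 11 genes of acetyl-CoA supply, 9 fell and 1 rose in thymic against SI tuft cells, and the same numbers held against non-tuft epithelium. The one that rose in both was Acly, the lyase itself, at 105 ± 22.3, 130 ± 29.2 and 293 ± 50.8 CPM (1.17 between the tuft groups, SE 0.21, adjusted p = 0.000611). Cs, citrate synthase, went from 544 ± 67.8 to 214 ± 30.3 CPM (-1.34, SE 0.16, adjusted p = 3.03e-05), and Crat, which moves acetyl groups to carnitine, from 169 ± 11.6 to 26.0 ± 7.74 CPM (-2.71, SE 0.23, adjusted p = 1.15e-06). The antisense gene Gm16323 shares 411 exon bases with Crat. The median of the list was -1.13 between the tuft groups. With library sizes alone, which move all genes as given above, 3 and not 9 fell between the tuft groups and 5 fell against non-tuft epithelium. With mitochondrial genes removed before scaling the count between the tuft groups was 9.

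**Figure D5:**
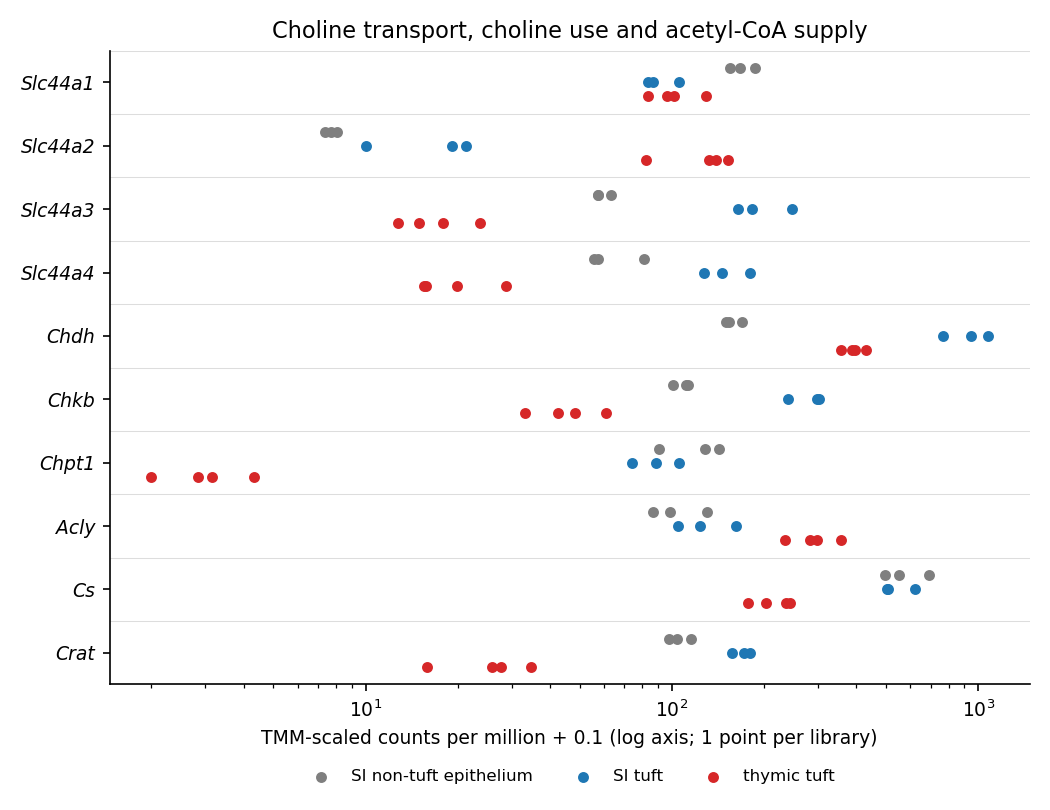
Level of 10 genes of choline transport, choline use and acetyl-CoA supply (TMM-scaled CPM plus a small constant, log axis), 1 point per library, coloured by group. Slc44a3, Slc44a4 and Chdh are highest in SI tuft cells, Slc44a2 and Acly in thymic tuft cells, and Chpt1 is lowest there.

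Release of a vesicle's content needs SNARE proteins, synaptotagmins and their partners. All 22 genes of this list were tested, and 12 rose and 3 fell in thymic against SI tuft cells (no gene fell with library sizes alone). Among all genes tested, 28.5% rose and 23.1% fell in that comparison. Syt2 and Sv2b were tested only because of their thymic counts. Syt1, the calcium sensor of fast neuronal release, stood at 0.962 ± 0.250, 2.29 ± 1.40 and 132 ± 15.0 CPM (5.85 between the tuft groups, SE 0.41, adjusted p = 2.74e-07). Sv2b, a synaptic vesicle glycoprotein gene with no count in SI tuft cells, was at 9.42 ± 3.36 CPM in the thymus, at least 370-fold higher. Snap25, the neuronal SNARE, fell in both tuft groups against non-tuft epithelium, from 167 ± 22.8 CPM to 16.8 ± 3.32 CPM in SI tuft cells (-3.31, SE 0.54, adjusted p = 0.00083) and 14.8 ± 11.9 CPM in thymic ones (-3.49, SE 0.49, adjusted p = 8.63e-05). The enteroendocrine markers, of a secretory cell that uses Snap25, summed to 9337 to 13185 CPM in non-tuft epithelium and at most 931 CPM in the tuft groups, and their part in this was not tested. Of the relatives of Slc18a3, Slc18a1, a monoamine loader, was likewise highest in non-tuft epithelium (68.8 ± 5.01 CPM against 8.02 ± 3.25 and 17.4 ± 10.2 CPM).

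Of 9 transcription factors that govern the cholinergic locus in neurons, 2 had enough counts to be tested. Isl1 fell in SI tuft cells against non-tuft epithelium (-3.80, SE 0.86, adjusted p = 0.00741). It rose in thymic against SI tuft cells (4.40, SE 0.87, adjusted p = 0.00122), from 0.744 ± 0.860 to 15.7 ± 10.2 CPM. Thymic replicate 1 held 30.8 CPM, the other thymic libraries 8.78 to 12.2 CPM. Chat rose in the first comparison and fell in the second, where its fall depended on the scaling. A link between Isl1 and Chat was not tested. Rest, the repressor of neuronal genes, stood at 26.5 ± 2.97, 22.4 ± 3.35 and 32.6 ± 11.1 CPM and passed no test.

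Across the 10 libraries, the protein-coding genes whose log2 levels ran closest to each member were named as a description of likeness, over points that share the 3 groups. Chat was tracked by Dclk1, Dmxl2 and Strip2 (Pearson r = 0.997 each), of which Dclk1 is a standard tuft cell marker, and 361 of 10748 candidates exceeded 0.9. Ache ran closest to Col17a1, Snn and Dnah9 (r = 0.995, 0.991 and 0.990) and Bche to Mrpl51, Abcc2 and Slc5a4b (r = 0.993, 0.993 and 0.992). Above 0.9 were 1218 candidates for Ache and 1139 for Bche, so the likeness is not particular to the genes named. For Slc5a7 the nearest were Dmrta1, Acta2 and Has2 (r = 0.998, 0.993 and 0.993), with 1092 candidates above 0.9. Slc18a3 had only 4 candidates above 0.9, among them Nat9 and Iffo1 (r = 0.936 and 0.918). Between Slc18a3 and Chat, in whose intron it lies, r was 0.53, and between Ache and Bche it was -0.91.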

How the data were processed

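Per the submitters' processing notes, the authors aligned reads with STAR to GRCm38 and named DESeq2, without versions; the gene counter and annotation are not given in the sources used here. Per the labels, poly(A) RNA was amplified with a NuGEN Ovation V2 kit and made into Nextera XT libraries. The authors deposited raw gene counts, 1 file per library, and 1 SI tuft and 1 SI non-tuft library were discarded by them for quality. Levels in CPM and log2 fold changes were computed here from the deposited counts. Of 43432 identifiers 42548 were found in GENCODE M21, which gave symbols, coordinates and the union of exons. Genes were kept by filterByExpr (minimum count 10, total 15) and tested in edgeR 4.0.16 (R 4.3.3, limma 3.58.1) with TMM scaling over all 10 libraries, 1 mean per group and 3 comparisons, adjusted by the Benjamini-Hochberg method. The SE is the size of the log2 fold change divided by the square root of F. DESeq2 1.42.0 was an alternative among 21. The test was tried on simulated data. Shared counts between libraries were estimated from 282 thymus-restricted and 6 epithelial genes. Intervals and floors of 3 counts cover counting error only.

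The 5 genes, the 10 pathway lists and the 17 marker lists were chosen with earlier results of these data known. From each list, genes were named by abundance (the 2 highest) and by change (up to 3 called each way per comparison, at least 1 CPM in the higher group). TGCAAAT was chosen after the promoter letters were seen. Replicates of a group are separate mice. Whether same-numbered libraries of different groups came from the same mouse is not stated, and the main fit did not pair them. Their deviations correlated at -0.10 to 0.11, which with so few libraries does not settle whether a mouse was shared. Some results named by these rules are not reported here.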

Additional observations from a re-analysis of the deposited data

Results flagged for a closer look

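Among the 4 thymic tuft libraries, 1 library stood apart from the other 3 in 10 of the 58 genes looked at, by Dixon's criterion, where chance flags about 1 in 20 groups. Of the 5 members it was Bche alone, at 50.3 CPM in replicate 2. Replicate 1 stood apart in Chrm3 (4.21 CPM), Chrnd (6.35 CPM), Chrna4 (12.1 CPM) and Isl1 (30.8 CPM). Replicate 3 stood apart in Chrm1 (4.06 CPM) and Slurp1 (18.9 CPM). Replicate 4 stood apart in Syt2 (8.25 CPM), Tmem35a (62.9 CPM) and, on the low side, Sv2b (4.39 CPM).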

How the results depend on the processing

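The 21 alternatives changed scaling, filter, tool, samples in the fit, shared counts, depth and composition, or left out 1 library each. The 1 member higher in SI tuft cells and the 1 lower in thymic tuft cells against non-tuft epithelium held in all 21. The 3 higher in thymic tuft cells against non-tuft epithelium became 2, and the 2 higher against SI tuft cells became 1, only under a filter of 10 CPM in 3 libraries, which removes Slc5a7. The 2 lower in thymic than in SI tuft cells became 1 (Bche) with library sizes alone. The 1 lower in SI tuft against non-tuft epithelium, Ache, became 0 with shared counts subtracted, and ranged from 0 to 1 when single libraries were left out. With library sizes alone Bche differed by -0.06 between SI tuft and non-tuft epithelium, and Chka, Stx4a and Vamp8 turned to 0.22, 0.40 and 0.06 between the tuft groups. The Slc18a3 difference between the tuft groups, uncalled, was -0.13 with a replicate block and ranged from -0.57 to 0.60 without single libraries. The block ended no call on a member. Replicate numbers are not stated to pair these libraries. Without epithelial replicate 3 Slc5a7 had no count in either intestinal group and no value. Of 112 calls on named pathway genes 85 held in every alternative that gave a value. Over all genes, library sizes alone gave 8822 higher and 2003 lower between the tuft groups (5492 and 4453 with TMM) and 2460 lower in thymic tuft against non-tuft epithelium (4297). The stricter filter gave 3289 and 3536 higher in the thymic comparisons (5492 and 5514). For SI tuft against non-tuft epithelium, a fit of the 2 groups alone gave 3475 higher and 3513 lower (2101 and 2199), and leaving out epithelial replicate 1 gave 1426 lower, the fewest of any alternative. Depth limits Slc5a7 and Slc18a3, whose counts stayed at or under 176 in every library.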
